A study of Mus musculus with 46 samples.

Results

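Keratin genes encode the intermediate filament proteins of epithelial cells. Type I and type II keratins pair with each other to form filaments, and the genes of each type lie side by side in a cluster of their own. Simple epithelia, which are single-layered, use Krt8 with Krt18, joined in many ducts and glands by Krt7 and Krt19, whereas skin, hair and tongue use the others. Fibroblasts build their filaments from vimentin instead, and the switch from a mesenchymal to an epithelial cell is a known step on the way to pluripotency. The histone variant H3.3 is placed into chromatin outside of replication, at starts and bodies of active genes and at regulatory elements. Trimethylation of H3 at lysine 4 (H3K4me3) marks gene starts, and trimethylation at lysine 36 (H3K36me3) marks the bodies of transcribed genes.

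The members were the protein-coding genes of GENCODE vM1 (mouse build mm9) whose symbol is Krt followed directly by a number. They numbered 51 of 22367 protein-coding genes on the autosomes, X and Y. The type I cluster on chromosome 11 (99094075 to 100131185) held 27 of them and the type II cluster on chromosome 15 (101177875 to 101862457) held 24, among which Krt18 is a type I gene. The 4 simple keratins, Krt7, Krt8, Krt18 and Krt19, were compared with the other 47. A gene was said to have a peak when a deposited peak overlapped its window, from 1 kb before to 1 kb after the gene, by at least 1 bp. Its score was the normalized tag count of those peaks, in tags per 10 M, each counted by the part inside the window.

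The peak lists came from mouse embryonic fibroblasts (MEFs) whose Oct4 carried a GFP tag, infected with retroviral Oct4, Sox2, Klf4 and c-Myc. D0 was collected before conversion and D3 on day 3, unsorted. Cells of days 6 and 9 were sorted by the fibroblast antigen Thy-1 (D6T-, D6T+, D9T-, D9T+) and cells of days 12 and 16 by the pluripotency antigen SSEA-1 (D12S+, D12S-, D16S+, D16S-). Thy-1-negative and SSEA-1-positive cells were the fractions taken as successful, and iPSCs (fully reprogrammed) and the embryonic stem cell line ESD3 were the pluripotent ends. H3.3 was also profiled while MEFs carrying Scl, Lmo2, Bmi1 and Runx1 moved towards hematopoietic cells on a layer of OP9 stromal cells, at day 0 (MEF), at day 4 (D4) and in cells labelled fully transdifferentiated, sorted as cKit+ or cKit-. There were 16 H3.3 libraries and 7 each for H3K4me3 and H3K36me3, both of which were taken from D0 to iPSCs along the successful fractions. With a single library for every group there was no replicate error to hold a difference against, and no test was made. Intervals below cover counting error only, since tags are not independent molecules.

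Depth was 18.7 to 41.2 M tags in the reprogramming H3.3 libraries, 46.7 to 91.8 M in the transdifferentiation libraries and 13.2 to 35.4 M in the libraries of the other marks. Enrichment differed more than depth: the share of tags inside peaks was 1.65% to 37.2% in H3.3 lists, and it was lowest in cKit+ and cKit- and highest in D4. H3.3 peaks lay at 5 of 5 fibroblast markers in D0 and 1 of 5 in iPSCs, and at 2 of 5 pluripotency markers in D0 and 5 of 5 in iPSCs. In cKit+, 3 of 5 fibroblast markers and 1 of 4 hematopoietic markers found in the annotation had a peak, against 33.2% of all genes. Its list thus did not show the labelled cell type by these counts. In cKit- they were 3 of 5 and 2 of 4, against 31.8%. By score, the hematopoietic marker Myb had 36.4 in cKit+ and 153 in cKit-, against 6.21 in MEF. Ptprc had 45.3 in cKit- and no peak in cKit+ or MEF, and Kit and Gfi1b had none in these lists.

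The upstream sequences of Krt8, Krt18 and Krt7 are shown first because their H3K4me3 lay near the start of the gene, and Krt19 had no window in the RefSeq table used. Each run gives the 250 bases before a RefSeq start (windows from GRCm38.p6, placed in mm9 by exact match), 5′ to 3′ on the strand of the gene, with every CG dinucleotide in capitals. Krt5, the basal layer keratin, is set beside them as a member without any peak. Krt8 lies at chr15:101834774-101835023 (minus strand), Krt18 at chr15:101858397-101858646 (plus strand), Krt7 at chr15:101242584-101242833 (plus strand) and Krt5 at chr15:101543337-101543586 (minus strand).
Krt8: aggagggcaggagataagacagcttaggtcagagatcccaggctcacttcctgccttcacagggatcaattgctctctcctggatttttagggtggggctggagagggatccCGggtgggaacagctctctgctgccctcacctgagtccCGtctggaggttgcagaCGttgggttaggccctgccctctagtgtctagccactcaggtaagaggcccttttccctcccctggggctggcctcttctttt
Krt18: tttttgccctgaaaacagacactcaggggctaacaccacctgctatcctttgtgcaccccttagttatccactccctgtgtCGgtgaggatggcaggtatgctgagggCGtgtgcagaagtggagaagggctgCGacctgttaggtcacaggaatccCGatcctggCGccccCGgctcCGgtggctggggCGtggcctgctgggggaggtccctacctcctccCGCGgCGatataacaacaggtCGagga
Krt7: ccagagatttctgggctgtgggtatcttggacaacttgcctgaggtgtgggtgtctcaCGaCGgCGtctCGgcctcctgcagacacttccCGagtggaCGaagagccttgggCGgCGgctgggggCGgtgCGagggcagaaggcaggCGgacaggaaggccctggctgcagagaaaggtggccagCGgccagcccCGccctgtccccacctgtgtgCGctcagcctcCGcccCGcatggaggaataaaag
Krt5: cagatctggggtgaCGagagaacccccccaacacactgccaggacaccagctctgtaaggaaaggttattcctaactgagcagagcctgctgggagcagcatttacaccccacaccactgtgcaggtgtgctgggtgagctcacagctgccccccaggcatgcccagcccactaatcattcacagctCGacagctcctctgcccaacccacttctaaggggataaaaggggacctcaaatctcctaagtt
The Krt8 window held 3 CG dinucleotides, Krt18 held 12, Krt7 held 16 and Krt5 held 2. RefSeq windows were found for 34 of the 51 members, 37 windows in all, and Krt7 and Krt18 were the members with the highest counts. The median was 4.0 over keratin windows and 6.0 over all 32851 windows. Members with an H3K4me3 peak in at least 1 library had a median of 5.0 CG dinucleotides (14 genes) and those without had 3.0 (20 genes). Searched on both strands, GGGCGG was present in 2 of 37 keratin windows (5.41%, against 32.7% of all windows), with 4 matches in the Krt7 window, at 141, 128, 56 and 24 bases before the start. TATAAA was present in 17 of 37 (45.9%, against 12.4%), and in none of the windows of Krt7, Krt8 or Krt18. TGANTCA was present in 2 of 37 (5.41%, against 6.75%) and was likewise absent from these 3 windows.

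In any 1 library most keratin genes carried no peak, in fibroblasts as in pluripotent cells. An H3.3 peak was found at 7 of 51 keratins in D0, or 13.7% (95% Wilson interval 6.81 to 25.7), while 61.9% of all protein-coding genes had one. In iPSCs the count was 8, or 15.7% (8.17 to 28.0), against 61.2%, and in ESD3 it was also 8, against 52.1%. Along the successful fractions the counts were 4 in D3, 7 and 9 in D6T- and D9T- and 6 and 6 in D12S+ and D16S+, where 57.3%, 60.6%, 58.3%, 50.2% and 43.4% of all genes had a peak. In the other fractions they were 5 and 4 in D6T+ and D9T+ and 12 and 10 in D12S- and D16S-, against 53.1%, 55.0%, 63.5% and 56.7%. In all 16 H3.3 libraries the upper end of the keratin interval lay below the share over all genes. With the same number of top-scoring peaks in every list the count was 4 in D0 (41.3% of all genes), 4 in iPSCs (40.1%) and 5 in ESD3 (36.7%). Keratin windows were short (4.87 to 24.7 kb, median 8.99 kb, against 17.4 kb over all genes), but the 9295 genes with windows in this range had shares from 25% (cKit-) to 73.0% (D4) over the H3.3 libraries, where all genes had 31.8% and 72.1%.

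**Figure D1:**
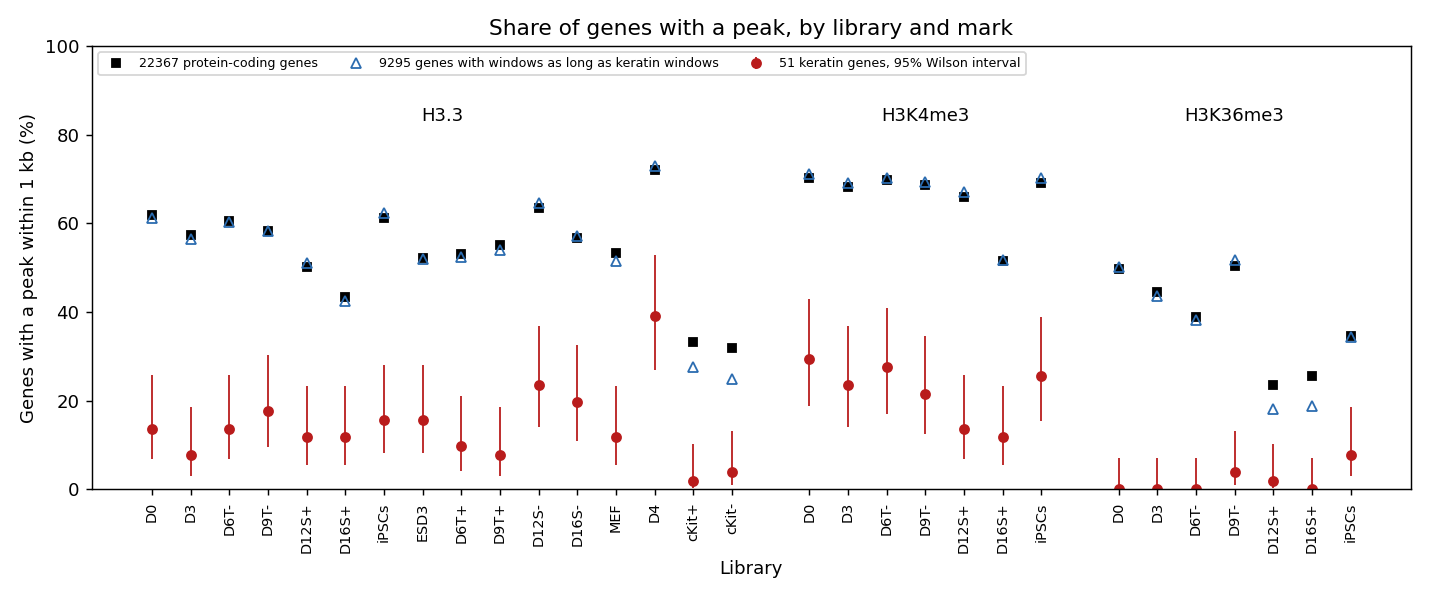
Percent of genes with a peak within 1 kb (vertical axis) in each of the 30 libraries (horizontal axis), for the 51 keratin genes with 95% Wilson intervals, all 22367 protein-coding genes and the 9295 genes with windows in the length range of keratin windows. The keratin share lies below both others in every library, from 1.96% (cKit+) to 39.2% (D4) for H3.3.

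H3K4me3 peaks were found at 15 keratins in D0, 12 in D3, 14 and 11 in D6T- and D9T-, 7 and 6 in D12S+ and D16S+ and 13 in iPSCs. The shares over all genes were 70.2%, 68.2%, 69.7%, 68.6%, 66.0%, 51.6% and 69.0% in the same order. H3K36me3 was nearly absent: no keratin had a peak in D0, D3, D6T- or D16S+ (49.7%, 44.6%, 38.8% and 25.6% of all genes), 2 had one in D9T- (50.3%), 1 in D12S+ (23.5%) and 4 in iPSCs (34.7%). A count of 0 of 51 has an upper Wilson limit of 7%. Over all libraries, 27 keratins had H3.3 at least once, 24 had H3K4me3 and 5 had H3K36me3, while 19 never had a peak of any mark. These are 52.9%, 47.1%, 9.80% and 37.3% of the members, against 80.1%, 75.5%, 58.2% and 16.9% of all genes. These 19 were Krt24, Krt26, Krt23, Krt40, Krt33b, Krt34, Krt32, Krt35, Krt36, Krt9, Krt84, Krt6b, Krt6a, Krt5, Krt71, Krt74, Krt2, Krt76 and Krt4. Reads that map to more than 1 locus were removed by the authors, so for near-identical copies such as Krt6a with Krt6b a missing peak is uncertain.

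As a class, the simple keratins had a peak more often than the other 47 in most H3.3 libraries and every H3K4me3 library. All 4 had each of the 3 marks in at least 1 library. Their share of genes with a peak was above that of the other 47 in 14 of 16 H3.3 libraries. It was so in 7 of 7 H3K4me3 libraries and 3 of 7 H3K36me3 libraries. For H3.3 this did not hold gene by gene. Krt8 had a peak in 13 libraries and Krt19 in 10, but Krt7 and Krt18 in 4 each. Of the others, Krt10 had one in 16, Krt80 in 11, Krt77 in 8, Krt42 in 7, Krt222 in 6 and Krt17 in 5. A peak at 1 simple keratin was enough to place the class above the others in D3, D9T+ and D12S+. In D0, H3.3 lay at 3 of 4 simple keratins and 4 of 47 others, a difference of 66.5 percentage points (95% interval 20.1 to 87.6). With the same number of top-scoring peaks in every list the difference was 18.6 points, and at 4-fold or more over input it was 16.5. In iPSCs the peaks lay at 2 of 4 and 6 of 47, a difference of 37.2 points (0.103 to 72.9), or 18.6 with equal numbers of top-scoring peaks. Over all protein-coding genes the shares were 61.9% in D0 and 61.2% in iPSCs. Both lay within the Wilson intervals of the simple keratins, 30.1 to 95.4 around 75.0% in D0 and 15.0 to 85.0 around 50.0% in iPSCs. For H3.3 in these 2 libraries the share of the simple keratins was thus above that of the other keratins. Intervals this wide, from 4 genes, cannot place the simple keratins against genes at large. All these intervals also take neighbouring genes as independent. The cKit+ and cKit- lists had none at the simple keratins.

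Krt8, the type II keratin of simple epithelia, had H3.3 in 13 of 16 libraries. Its score was 16.5 in D0, without a peak in D3, 88.6 and 79.2 in D6T- and D9T-, 44.4 and 4.49 in D12S+ and D16S+ and 40.8 in iPSCs. ESD3 had 37.2, close to iPSCs, with overlapping Poisson intervals of 29.5 to 46.3 and 34.9 to 47.5. The score did not increase steadily along the route, and its highest values were in D6T- and D9T- under every alternative run. D16S+, the last sorted fraction, was below D0 here, but this order turned under 2 alternatives: with equal numbers of top-scoring peaks it was 4.49 against 0 in D0, and with whole scores 29.6 against 25.6. Its value of 4.49 is the part inside the window of 1 peak with a score of 29.6, from -2715 to -694 bp of the start. D16S+ was also the shallowest H3.3 library, and 4.88% of its tags were in peaks, against 19.1% in D0 and 14.0% in iPSCs. The part of this in the low score was not tested.

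The Thy-1 and SSEA-1 fractions stood in opposite order for Krt8. It had 36.7 in D6T+ and 43.6 in D9T+, below the successful fractions of these days, but 116 and 79.6 in D12S- and D16S-, above them. The Poisson intervals did not overlap on any of the 4 days: 78.2 to 100.0 against 29.1 to 45.8 on day 6, 69.8 to 89.5 against 35.4 to 53.2 on day 9, 36.1 to 54.0 against 104 to 129 on day 12 and 1.99 to 8.71 against 67.9 to 92.8 on day 16. The tag numbers behind them are apportioned by peak length, and that of D16S+ is 8.42. With whole scores day 16 was 29.6 against 106, so the order held but its size depends on the apportioning. Many other genes stood in the same order. Of the 12033 genes with a peak in at least 1 fraction on every day, 50.3% were higher in the successful fraction on days 6 and 9 and lower on days 12 and 16. The median log2 ratio of successful to unsuccessful score over all genes with both values was 0.79, 0.27, -1.56 and -1.33 on days 6, 9, 12 and 16, beside 1.27, 0.86, -1.38 and -4.15 for Krt8. The share of tags in peaks stood likewise, 19.3% against 10.9%, 14.8% against 12.1%, 6.93% against 22.0% and 4.88% against 12.2%, and its part was not tested. Of the 4 keratins with a peak on every day (Krt10, Krt19, Krt80 and Krt8), Krt8 and Krt10 showed this order.

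In the transdifferentiation libraries Krt8 had 3.77 in MEF and 19.2 in D4, and no peak in cKit+ or cKit-. D0 and MEF, the day 0 fibroblasts of either experiment, shared 5 keratins with H3.3 (Krt8, Krt10, Krt19, Krt80 and Krt81), which is 71.4% of the D0 set and 83.3% of the MEF set. The iPSCs and ESD3 shared 5 of 8 each (62.5%): Krt8, Krt10, Krt28, Krt42 and Krt222.

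**Figure D2:**
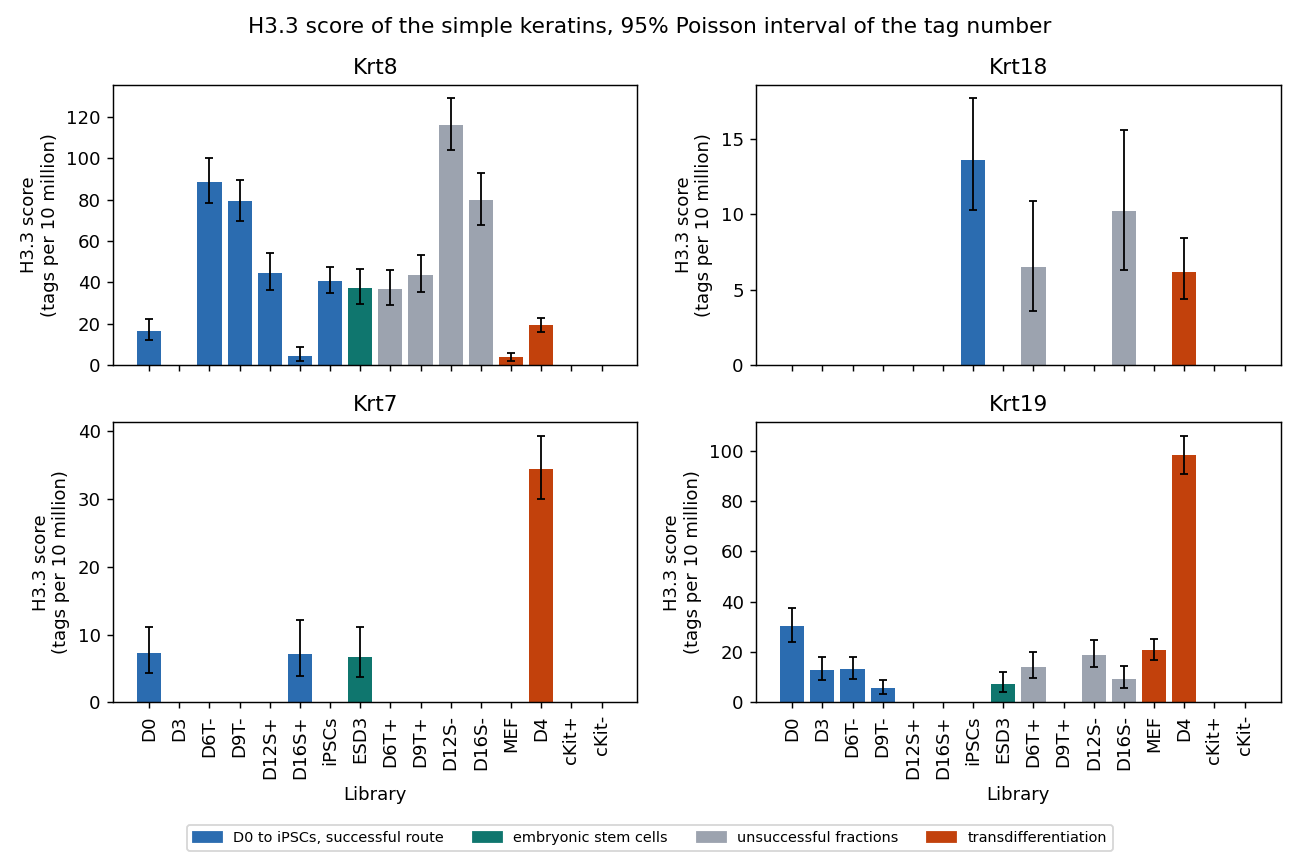
H3.3 score (tags per 10 M, vertical axes with different ranges) of Krt8, Krt18, Krt7 and Krt19 in the 16 H3.3 libraries (horizontal axis, 1 library per group). Bars are the score, error bars the exact 95% Poisson interval of the tag number, and a missing bar means no peak; Krt8 has its highest bar in D12S- (116) and Krt19 in D4 (98.3).

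Krt18, the type I partner of Krt8, had far less H3.3. It had a peak in 4 of 16 libraries, with a score of 13.6 in iPSCs, 6.52 in D6T+, 10.2 in D16S- and 6.16 in D4. All other libraries had none. In iPSCs the score of Krt8 was the larger within the pair, except at a fold over input of at least 4, where Krt8 had 5.71 and Krt18 7.90. On a length basis the peaks themselves were alike in iPSCs, 10.4 tags per 10 M per kb covered at Krt8 and 12.0 at Krt18, and the covered length differed, 3.91 kb against 1.13 kb. With the same number of top-scoring peaks in every list Krt18 was left with 1 library.

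Krt19, the smallest keratin, used in ducts, had a course unlike that of Krt8. H3.3 scored 30.2 in D0, 12.8 in D3, 13.3 and 5.71 in D6T- and D9T- and had no peak in D12S+, D16S+ or iPSCs. ESD3 had 7.40. The other fractions had 14.2 in D6T+, no peak in D9T+, 19 and 9.27 in D12S- and D16S-, and MEF had 20.7. D4 was highest with 98.3 (Poisson interval 90.7 to 106), far above MEF, while 37.2% of D4 tags were in peaks against 7.64% in MEF, and the part of this was not tested. With the same number of top-scoring peaks Krt19 kept 4 of its 10 libraries.

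Krt7 had H3.3 in 4 of 16 libraries: 7.23 in D0, 7.2 in D16S+, 6.71 in ESD3 and 34.5 in D4. None of these peaks covered an annotated start, and in D0, D16S+ and ESD3 they were 0.500 kb long. The fold over input was 3.3 to 3.94, so no Krt7 peak remained at a fold of at least 4, and none among equal numbers of top-scoring peaks.

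H3K4me3 was present at Krt8, Krt18 and Krt19 in all 7 libraries, fibroblasts included. Krt18 scored 56.0 in D0, 33 in D3, 28.0 and 33.1 in D6T- and D9T-, 25.4 and 19.6 in D12S+ and D16S+ and 40.1 in iPSCs, and each of these peaks covered its start. Krt8 scored 38.5, 30.8, 95.4, 80.3, 20.0, 25.9 and 49.3 in the same order. At Krt8, H3K4me3 and H3.3 thus both had their highest route values in D6T- and D9T-. Krt19 scored 62.0, 72.0, 46.3, 43.7, 40.5, 13.9 and 30.2, so its D0 value (53.3 to 71.7) lay above its iPSC value (24.7 to 36.5). D12S+, D16S+ and iPSCs had 9.27%, 3.71% and 12.7% of their H3K4me3 tags in peaks, against 30.4% in D0. The part of this in the lower scores was not tested.

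Krt7 differed from these 3. It had no H3K4me3 peak in D0, D3, D6T-, D9T- or D16S+, and scored 10.7 in D12S+ and 15.7 in iPSCs. The iPSC peak ran from 926 to 2090 bp after the outermost annotated start and covered the start at chr15:101242833-101242833, the one whose upstream sequence is printed above. The fold over input was 7.06 in D12S+ and 7.22 in iPSCs.

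H3K36me3 at keratins was, in iPSCs, found at the 4 simple keratins and at 0 of the 47 others. Krt18 scored 81.4 (70.4 to 93.6), Krt8 75.7 (65.2 to 87.5), Krt7 56.6 (47.6 to 66.9) and Krt19 22.2 (16.7 to 29.0). In D0 none of them had a peak, although the D0 list held more H3K36me3 peaks (57288 against 26697) and more tags in peaks (31.3% against 2.88%). Between these ends Krt8 scored 23.9 in D9T- and Krt18 6.86 in D12S+, and the only other keratin with H3K36me3 in any library was Krt80, with 8.27 in D9T-. The Krt18 peak of iPSCs ran from 138 to 4580 bp after the start, past the end of the gene. The 6 peaks of Krt7, 3 of Krt8 and 3 of Krt19 were all downstream of the start. With equal numbers of top-scoring peaks 3 simple keratins kept a peak (Krt19 did not) and still no other keratin had one.

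Set side by side, D0 and iPSCs had H3.3 at the same 2 keratins, Krt8 and Krt10, or 3.92% of the members against 52.3% of all genes. H3.3 was found only in D0 at Krt7, Krt19, Krt39, Krt80 and Krt81, or 9.80% of the members against 9.53% of all genes. It was found only in iPSCs at 6, Krt14, Krt18, Krt28, Krt42, Krt77 and Krt222, or 11.8% against 8.84%. Both shares are near the background. H3K4me3 was shared by 9 (17.6% against 66.0%), only in D0 at 6 (11.8% against 4.20%) and only in iPSCs at 4 (7.84% against 3.00%), which were Krt7, Krt17, Krt75 and Krt72-ps. H3K36me3 was only in iPSCs at 4 (7.84% against 3.08%) and only in D0 at 0, while 18% of all genes had it only in D0.

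**Figure D3:**
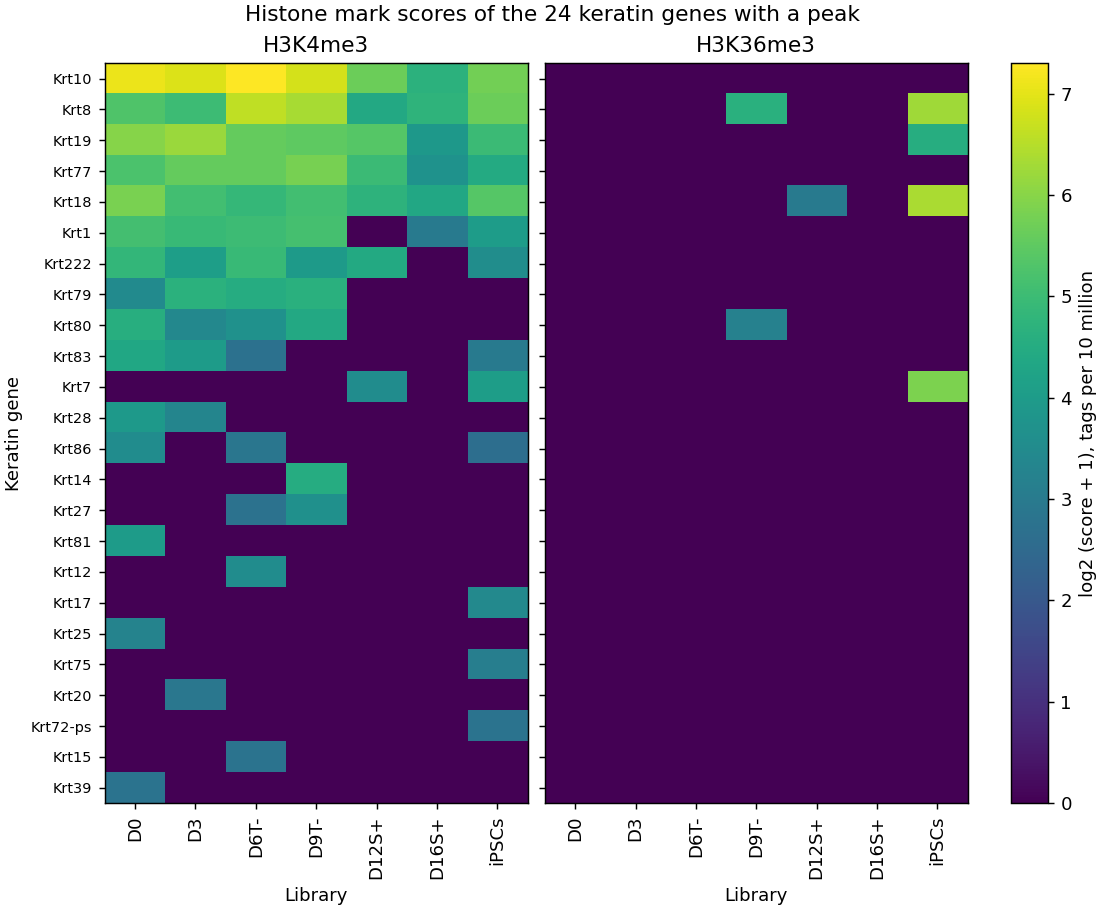
log2(score + 1) of H3K4me3 and H3K36me3 (colour, tags per 10 M) for the 24 keratin genes with a peak of either mark (rows) in the 7 libraries from D0 to iPSCs (columns). H3K4me3 fills the rows of Krt10, Krt8, Krt19, Krt77 and Krt18 in all 7 libraries, and H3K36me3 in iPSCs is seen at Krt8, Krt18, Krt7 and Krt19 alone.

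Krt8 and Krt18 are neighbours that point away from each other, with starts 23.9 kb apart. H3.3 at Krt8 lay around the start and at the end of the gene. In D12S- the first peak ran from -4322 to 3404 bp of the start (chr15:101831369-101839095) and the second from 6240 to 9398 bp after it. In D6T- the peaks ran from -3036 to 2172 bp and from 6865 to 9370 bp. The iPSCs had 4 shorter peaks, the first from -1358 to 598 bp. H3K4me3 of iPSCs ran from -52 to 2450 bp, so it lay inside the gene where H3.3 reached upstream.

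The stretch between the starts of Krt8 and Krt18 held H3.3 peaks in 14 of 16 libraries. Its first 1 kb belongs to the Krt8 window too and its last 1 kb to that of Krt18. Apportioned to this stretch, the score was 106 in D0, 23.7 in D3, 125 and 133 in D6T- and D9T-, 67.4 and 49.1 in D12S+ and D16S+ and 21.5 in iPSCs. ESD3 had 35.3. It was 67.1 and 102 in D6T+ and D9T+ and 204 and 123 in D12S- and D16S-. MEF had 48.3, D4 had 242 over 16.4 kb, and cKit+ and cKit- had none. D0 thus had a higher score than iPSCs between the genes (106 against 21.5), while the Krt8 window had the reverse order, 16.5 against 40.8. At a fold over input of at least 4 the Krt8 window had 10.4 in D0 and 5.71 in iPSCs, so its order turned. Per kb of its 23.9 kb the stretch was above the Krt8 window of 9.63 kb in 5 of 16 libraries (D0, D3, D16S+, MEF and D4), for example 4.44 against 1.72 in D0, and below it in 9, for example 5.24 against 9.20 in D6T- and 0.901 against 4.24 in iPSCs. No library had H3K36me3 there.

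**Figure D4:**
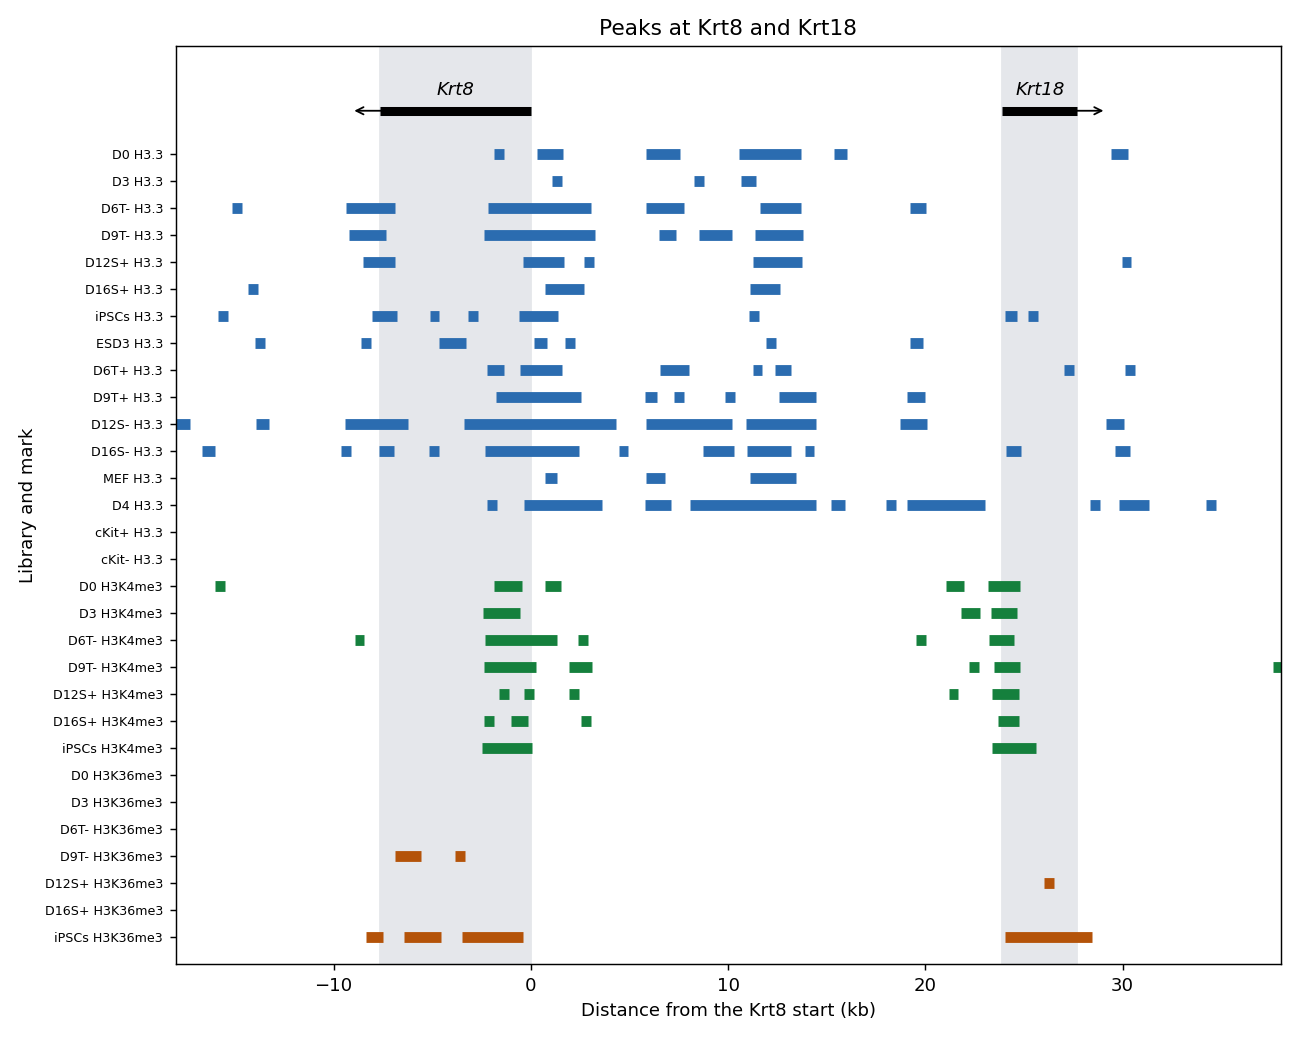
Peaks at Krt8 and Krt18 (grey bands, arrows in the direction of transcription) by distance from the Krt8 start in kb (horizontal axis), in the 16 H3.3 libraries (blue), 7 H3K4me3 libraries (green) and 7 H3K36me3 libraries (orange). H3.3 peaks cover up to 68.7% of the stretch between the genes (D4), 28.8% in D0 and 7.79% in iPSCs, H3K4me3 lies at or near both starts in each library, and H3K36me3 covers both gene bodies in iPSCs.

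Counted over genes and libraries, the peaks at the other 47 keratins were mostly elsewhere than at the start. Counting each gene in each library, 41.7% of the other keratins with H3.3 (35 of 84) had a peak within 1 kb of an annotated start, against 87.1% of the simple keratins (27 of 31) and 69.6% of all genes. For H3K4me3 it was 32.7% (18 of 55), against 100.0% (23 of 23) and 94.4%. Of the 61 H3K4me3 peaks at the others, 40 had their centre past the midpoint of the gene, compared with 2 of 30 at the simple keratins. These counts are not independent, since the same places recur from library to library. Krt10, Krt77, Krt1 and Krt79 gave 7, 7, 6 and 4 of the 61 peaks, all centred at 72.0% of the gene or later, and Krt222 gave 10. The pattern thus rests on few genes.

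Krt10, the type I keratin of the upper epidermal layers, was the only member with H3.3 in all 16 libraries. Its score was 42.7 in D0, 51.3 in D3, 80.9 and 53.3 in D6T- and D9T-, 65.8 and 46.1 in D12S+ and D16S+, 76.5 in iPSCs and 75.7 in ESD3. The other fractions had 54.5, 51.9, 87.4 and 52.0 on days 6, 9, 12 and 16. MEF had 27.6, D4 86.0, cKit+ 5.01 and cKit- 20.1, so the range over reprogramming libraries was narrow compared with that of Krt8. H3K4me3 was also found in all 7, with 134 in D0, 154 in D6T- and 52.6 in iPSCs. H3K4me3 did not lie at the Krt10 start, and H3.3 did so in few libraries. Within 500 bp of the start H3.3 was found in 3 of 16 libraries (D6T-, ESD3 and D4) and H3K4me3 in 0 of 7. Within 500 bp of the gene end H3.3 was found in 15 and H3K4me3 in 7. All H3K4me3 peaks were centred between 72.0% and 87.8% of the gene length. Gm11940, an annotated antisense transcript on the plus strand, starts inside Krt10, 2024 bp from its start in a gene of 4111 bp, and 14 H3.3 and 6 H3K4me3 libraries had a peak within 500 bp of that start. Peaks carry no strand, so the signal cannot be assigned to either transcript. Krt10 had no H3K36me3 in any library.

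Krt1, the type II partner of Krt10, and Krt77, another type II keratin of skin, had H3K4me3 at their ends too. Krt77 scored 36.8 in D0, 46.9 in D3, 46.5 and 55.3 in D6T- and D9T-, 30.5 and 12.3 in D12S+ and D16S+ and 20.9 in iPSCs, with every peak centred at 89.2% to 92.7% of the gene. Krt1 scored 33.4, 29.3, 31.2 and 34.3 from D0 to D9T-, had none in D12S+, and scored 6.96 in D16S+ and 15.3 in iPSCs, at 77.3% to 89.6%. Krt79 had it in 4 libraries, with 10.3 in D0, 24.3 in D3, 22.1 in D6T- and 24.0 in D9T-, at 90.9% to 95.4%. By base content these stretches were mixed: the ratio of observed to expected CG was 0.717 to 0.864 at Krt10, 0.403 to 0.613 at Krt77, 0.331 to 0.387 at Krt79 and 0.0953 to 0.548 at Krt1, where the median over all H3K4me3 peaks of chromosomes 11 and 15 was 0.354 to 0.508 per library.

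Krt77 H3.3 was found in 8 libraries, at the same end of the gene, with 13.0 in D9T-, 11.6 and 20.3 in D12S+ and D16S+ and 18.5 in iPSCs, and no peak in D0, D3, D6T-, D6T+, MEF or ESD3. The score was 10.7 in D9T+, while D12S- had 6.95, D16S- 6.34 and D4 4.94. So it was found from day 9 on in either fraction, though not in embryonic stem cells. Krt42, a type I keratin, had H3.3 in 7 libraries: 3.31 in D9T-, 13.8 and 12.3 in D12S+ and D16S+, 11.1 in iPSCs, 22.3 in ESD3, and 4.57 and 2.49 in D12S- and D16S-. It had none before day 9, in D9T+ or in transdifferentiation. Its peaks began 6466 to 7825 bp after its start. They covered the end of the gene (chr11:100124196) in D16S+, iPSCs and ESD3, and lay beyond it in D9T-, D12S+, D12S- and D16S-. In 5 libraries the same peak reached the window of Krt17, the keratin of wounded and activated skin, which is downstream. It lay before the Krt17 start, for example from -1186 to -251 bp in D12S-, and in ESD3 it covered that start. Krt17 scored 7.37 in D9T-, 9.12 in D12S+, 15.8 in ESD3, and 10.3 and 7.3 in D12S- and D16S-.

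Krt80, a type II keratin of differentiated epithelia, stood on the fibroblast side. H3.3 scored 53.6 in D0, 7.74 in D3, 29.0 and 15.9 in D6T- and D9T-, 6.66 and 6.40 in D12S+ and D16S+ and had no peak in iPSCs or ESD3. It scored 23.3 in D9T+, 69.7 and 49.3 in D12S- and D16S-, with no peak in D6T+, and 34.1 in MEF and 84.8 in D4. The D0 peak ran from -1414 to 2522 bp of the start. H3K4me3 gave the same split, with 22.9 in D0, 9.61 in D3, 12.0 and 20.2 in D6T- and D9T- and none in D12S+, D16S+ or iPSCs.

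Of the remaining keratins with several libraries, Krt222 had H3.3 in 6 (5.49 to 18.3) and H3K4me3 in 6 (10.9 to 29.4), in part from a peak centred beyond its end, next to Smarce1, that reached into its window. Krt20, a keratin of gut epithelium, had H3.3 in 4 (2.81 to 6.74), and Krt81, a hair keratin, in 3: 9.83 in D0, 12.6 in MEF and 38.7 in D4. The hair keratins Krt83 and Krt86 had H3K4me3 in 4 (5.57 to 19.5) and 3 (5.23 to 10.6). By group, H3.3 was found at least once in 4 of 7 basal and activated, 8 of 13 suprabasal and other stratified, 3 of 8 inner root sheath and companion layer and 5 of 14 hair shaft keratins. H3K4me3 was found in 3, 6, 4 and 4 of them. Over all genes the shares with a peak in at least 1 library were 80.1% and 75.5%. D4 had H3.3 at 20 keratins, 39.2% (27 to 52.9) against 72.1% of all genes. MEF had 6 (53.3%), cKit+ 1 (33.2%) and cKit- 2 (31.8%). All 6 keratins of MEF were among the 20 of D4, and with equal numbers of top-scoring peaks D4 had 7 and MEF 5.

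**Figure D5:**
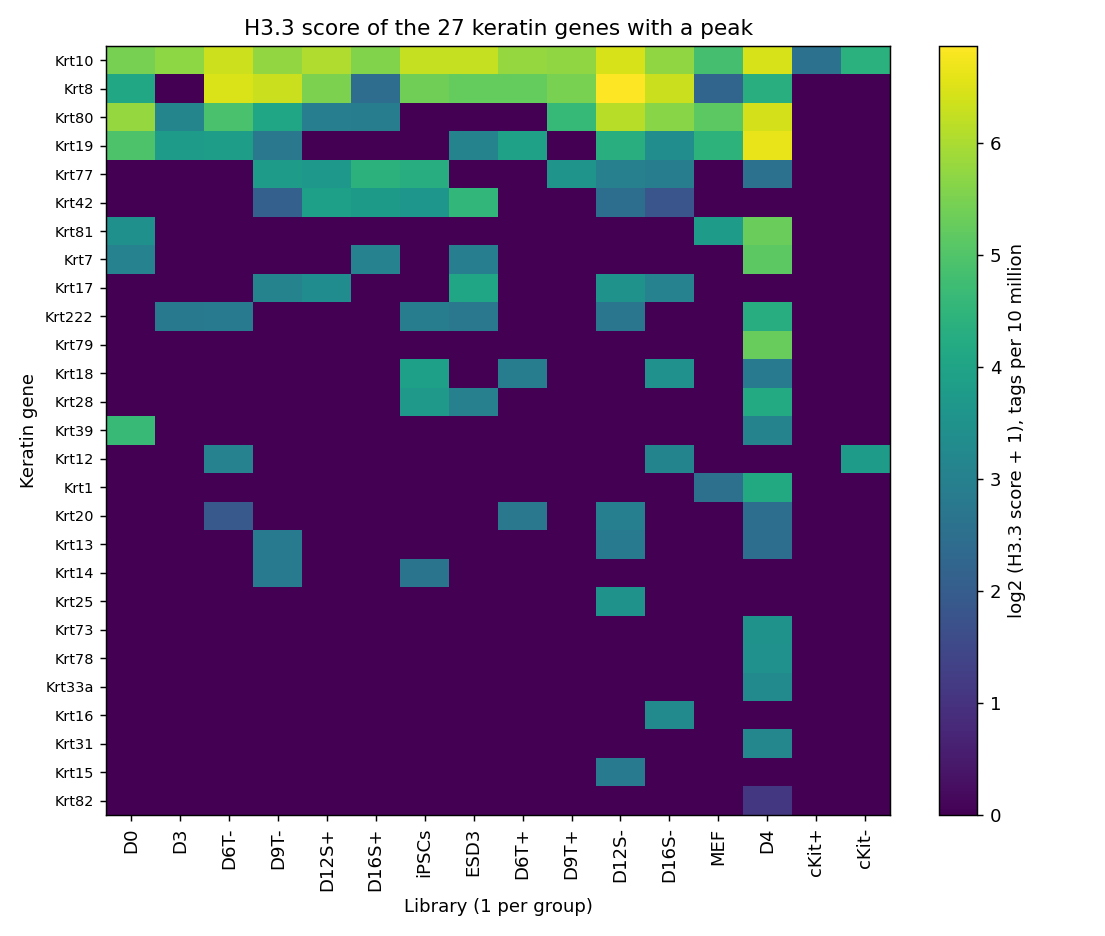
log2(H3.3 score + 1) (colour, tags per 10 M) of the 27 keratin genes with an H3.3 peak (rows, by summed score) in the 16 libraries (columns). Krt10 fills every column, Krt80 and Krt19 are seen in fibroblasts and D4 but not in iPSCs, and Krt77 and Krt42 appear from D9T- on.

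The clusters as a whole, keratins and the genes between them included, were sparse for H3.3. The type I cluster, which also held 22 keratin-associated protein genes, had fewer H3.3 peaks per Mb than chromosome 11 in all 16 libraries, for example 17.4 against 56.2 in D0 and 8.68 against 54.5 in iPSCs. The type II cluster was below chromosome 15 in 15 of 16, with 23.4 against 41.0 in D0 and 14.6 against 34.6 in iPSCs. For H3K4me3 the clusters differed in peaks per Mb. The type I cluster was below its chromosome in 7 of 7 libraries and the type II cluster in 1 of 7, with 26.3 against 17.9 in D0. By length covered with H3K4me3 peaks both clusters were below their chromosomes in every library. For the type II cluster this was 2.56% against 3.0% in D0 and 1.76% against 2.29% in iPSCs. In iPSCs the type II cluster had more H3K36me3 peaks per Mb than its chromosome, 17.5 against 11. Of its 12 peaks, 6 were at Krt7, 3 at Krt8 and 1 at Krt18. The 46 keratin-associated protein genes, which encode the matrix of hair, had H3.3 at 6 in D0 and 1 in iPSCs, against 61.9% and 61.2% of all genes. Their highest H3.3 count was 13 (28.3%) in D4, against 72.1%. H3K36me3 was at 0 in D0 and iPSCs, against 49.7% and 34.7%.

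The non-keratin filament genes and the partners of keratins looked unlike the clusters. Of 15 other intermediate filament genes, 13 had H3.3 in D0 and 13 in iPSCs, and 15 had H3K4me3 in both. Of all genes 61.9% had H3.3 in D0, 61.2% had it in iPSCs, and 66.0% had H3K4me3 in both. Vim, the vimentin gene of fibroblasts, scored 211 for H3.3 and 281 for H3K36me3 in D0, and 13.7 for H3.3 with no H3K36me3 peak in iPSCs. Of 16 partners and regulators of keratins, H3K36me3 was only in iPSCs at 7 (Cdh1, Dsp, Elf3, Evpl, Grhl2, Grhl3 and Pkp3) and only in D0 at 2 (Ppl and Trp63). Cdh1, the gene of the epithelial adhesion protein E-cadherin, scored 42.7 in D0, 20.7 in D3, 71.0 and 98.2 in D6T- and D9T-, 211 and 276 in D12S+ and D16S+ and 675 in iPSCs for H3.3. From D3 on its H3.3 score was thus higher at each step of the route, unlike that of Krt8. Dsp, the gene of desmoplakin, which anchors keratins at desmosomes, was nearer to Krt8, with 6.49 in D0, 43.2 in D3, 213 and 234 in D6T- and D9T-, 90.8 and 34.9 in D12S+ and D16S+ and 33.5 in iPSCs.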

How the data were processed

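ChIP-Seq peak lists of 30 libraries (16 H3.3, 7 H3K4me3, 7 H3K36me3) were analysed out of 46 samples. The other 16 samples were inputs, which enter only through the values each peak carries. The authors mapped reads to mm9 with STAR, removed reads at more than 1 locus and called peaks per library against input with HOMER findPeaks in histone style, with no pooling. Versions are not given in the sources used here. The deposited score is a signal, the normalized tag count per 10 M tags, neither divided by length nor reduced by input. The deposited fold over input is a ratio, at least 2 for H3.3 and 4 for the other marks.

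The genes were taken from GENCODE vM1 (22367 protein-coding genes on chromosomes 1 to 19, X and Y). A peak counted for a gene when it overlapped the gene and its 1 kb flanks by at least 1 bp. A score was multiplied by the part of the peak inside this window and summed. Shares have 95% Wilson intervals. Tag numbers were recovered from the apportioned score and the library total, which takes tags as evenly spread over a peak. They have exact 95% Poisson intervals. The overlap step was tested on simulated peaks. Named were the 4 simple keratins in every library and, per mark, the 8 other keratins with a peak in the most libraries, ties going to the higher summed score. Krt1 H3.3, Krt5 and the genes outside the keratins that carry values were chosen after their values were seen. Members and lists were chosen with earlier results of these data known. With 1 library per group no test was made. Alternatives were equal numbers of top-scoring peaks (25637 for H3.3, 19633 for H3K4me3, 12322 for H3K36me3), a fold over input of at least 4, the gene body alone, 1 kb either side of a start, peak midpoints and whole scores. Python 3 with numpy, pandas, scipy, statsmodels and matplotlib was used.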

Additional observations from a re-analysis of the deposited data

Results flagged for a closer look

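The H3.3 scores of Krt8 and Krt10 stood in one order between the fractions sorted by Thy-1 and in the opposite order between those sorted by SSEA-1. For Krt8 the successful minus the unsuccessful fraction was 51.9 on day 6, 35.5 on day 9, -71.5 on day 12 and -75.1 on day 16, in tags per 10 M. For Krt10 it was 26.4, 1.4, -21.6 and -5.9. The difference between the sorts was not tested, with 1 library in each fraction. The Poisson intervals of the Krt10 scores were apart on day 6 alone (70.9 to 91.8 against 45.1 to 65.3). They overlapped on day 9 (45.6 to 61.9 against 42.9 to 62.2), day 12 (55.6 to 77.3 against 76.6 to 99.2) and day 16 (36.9 to 56.9 against 42.6 to 62.9). The same order was found at 50.3% of all genes with a peak in at least 1 fraction on each day.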

How the results depend on the processing

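Of the values recomputed under an alternative, 74 stayed within 1.5 times the main count or within the interval of the main value, 29 did not and 4 turned. The 4 are differences of H3.3 scores added after seeing the data: at a fold over input of at least 4, Krt8 minus Krt18 in iPSCs was -2.19 (from 27.2) and Krt8 in iPSCs minus D0 was -4.69 (from 24.3), and Krt8 in D16S+ minus D0 (-12.0) was 4.49 with equal numbers of top-scoring peaks and 3.98 with whole scores. With equal numbers of top-scoring peaks the number of keratins with H3.3 was 4 in D0 (from 7), 4 in iPSCs (from 8) and 5 in ESD3 (from 8), the number with H3K4me3 was 7 in iPSCs (from 13) and 7 in D0 (from 15), and H3.3 libraries numbered 0 for Krt7 (from 4), 1 for Krt18 (from 4) and 4 for Krt19 (from 10). The D0 difference between simple and other keratins was 18.6 percentage points under this rule and 16.5 at a fold over input of at least 4, instead of 66.5. At that fold 5 keratins had H3.3 in iPSCs, 4 in ESD3, and 0 libraries had it at Krt7. Within 1 kb of a start, H3.3 was at 3 keratins in D0, 4 in iPSCs and 4 in ESD3, Krt7 kept 1 library, and H3K4me3 was at 6 keratins in D0. Each of these alternatives keeps fewer peaks or a smaller window by construction. The H3.3 score of Krt8 in iPSCs (40.8) was 18.1, 5.71, 25.6 and 18.1 with equal numbers, the higher fold, the gene body and the start, and that of Krt18 (13.6) was 0, 7.90 and 7.90 with equal numbers, the higher fold and the start. The number of H3.3 libraries at Krt8 and of keratins with H3K36me3 in iPSCs stayed within 1.5 times under every alternative run. Leaving aside the cKit+ and cKit- lists, chosen after seeing the data, altered no count of libraries for the simple keratins. No paired analysis was possible because the result comes from no test and each group has 1 library. Leaving out a replicate was likewise not possible. Depth limits low scores: the Krt18 score of 6.52 in D6T+ rests on 14 tags.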
